A study of Blastobotrys raffinosifermentans with 8 samples.

Results

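A set of 120 locus tags of the yeast *Blastobotrys raffinosifermentans* had their highest transcript level 2 h after a shift to fresh medium, both with gallic acid plus glucose and with glucose alone. They were chosen by their measured levels, as the top 120 of 6123 tags by a score taken from the authors' deposited log2 values. The score was the lower of both 2 h values minus the highest value on the other 6 arrays, after a tag's value was set to the median over its probes. Tags with the prefix ARAD1M were left out of this choice and of the shares over 6123 tags, but not of the fits. The level at 2 h therefore chose these tags, and every value that sets 2 h against the other harvest times within an arm is a description with no test. The files do not pair the tags with gene names or functions, so the tags are given by locus tag alone.

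The strain was LS3 throughout, grown overnight in glucose minimal medium with nitrate as nitrogen source, pelleted, and shifted to fresh YMM-NaNO3. In the gallic acid arm the new medium held 1% glucose and 0.5% gallic acid. In the glucose arm it held 1% glucose only. Cells of each arm were taken from shaking flasks at 30 °C at 15 or 30 min and at 2 or 5 h, and total RNA of each harvest was put on 1 of 8 one-colour Agilent arrays, so no arm and harvest time had a replicate. Nothing in the labels says that the harvests came from separate cultures, so the p-values do not measure a spread between cultures. They rest on how the difference between the arms varied across harvest times. That mixes the spread from array to array, which may be technical, with any change of this difference over time.

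Gallic acid is a hydroxylated aromatic acid and a building block of tannins, and yeasts of this kind can use it as a carbon source. A shift of cells from a spent overnight culture into fresh medium is itself a strong stimulus for a yeast, which adjusts the transcripts of growth, transport and stress genes over the following minutes and hours. Both arms were shifted in the same way. RNA was taken from the whole culture, so a transcript made by more cells and a transcript made in larger amounts per cell cannot be told apart.

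Levels in the following are log2 normalized intensities recomputed from the scanner files, as the median over a tag's probes, unless the deposited values are named. The yeast spots well above background made up 56.7% to 81.9% of an array, and no yeast spot was saturated. The share at 2 h was the highest of its arm, 74.3% with gallic acid and 81.9% in glucose. The 10 spike-in controls, RNA added in a fixed amount, lay 0.93 above the array's 75th percentile on the log2 scale at 2 h with gallic acid and 0.97 above it at 2 h in glucose. On the other 6 arrays they lay between 1.63 and 2.27 above it. The spike-ins were thus dimmest relative to the yeast RNA on the same 2 arrays on which the 120 tags were highest, and the part of this in the levels was not tested. Harvest times lay in different columns of the slide and arms in different rows, so slide position and group cannot be told apart.

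The 120 tags came from a larger number with the same shape. In the deposited values 1211 of 6123 tags (19.8%) were higher at 2 h in both arms than on all other arrays, against 738 tags with such a peak at 15 min, 516 at 30 min and 835 at 5 h. The peaks at 2 h were also the largest. A score of at least 1 was reached by 197 tags at 2 h, against 25 at 15 min, 42 at 30 min and 33 at 5 h. The tag ranked 120 had a score of 1.28 at 2 h. The tag of the same rank had 0.45 at 15 min, 0.49 at 30 min and 0.36 at 5 h. Harvests were unevenly spaced in time, and the part of this in the counts and scores was not tested.

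The scores of the 120 tags ran without a gap into those of the tags left out. The highest belonged to ARAD1D12606g (4.46), ARAD1D20922g (3.30), ARAD1B07238g (3.07) and ARAD1C42790g (3.01). The last tags inside the list were ARAD1D29282g (1.284) and ARAD1C09284g (1.279), and the first outside it were ARAD1B04554g (1.270) and ARAD1C25190g (1.270). In the levels recomputed from the scanner files all 120 were again higher at 2 h in both arms than on the other 6 arrays, as were 1203 of 6123 tags (19.6%). Of the 120 tags with the highest scores in the recomputed levels, 107 were in the list.

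In the median the course of the 120 tags was a single step up and back, with its peak set by the rule. Single tags departed from it, and outside 2 h the levels of 13 of the 120 spanned at least 1 (10.5% of all tags). With gallic acid plus glucose their median level was 6.46 and 6.59 at the early harvests, 8.24 at 2 h and 6.48 at 5 h. In glucose it was 6.51 and 6.60, 8.32 and 6.47 at the same times. The median of all tags stayed between 6.41 and 6.43 on every array, a value that quantile normalization holds nearly constant.

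**Figure D1:**
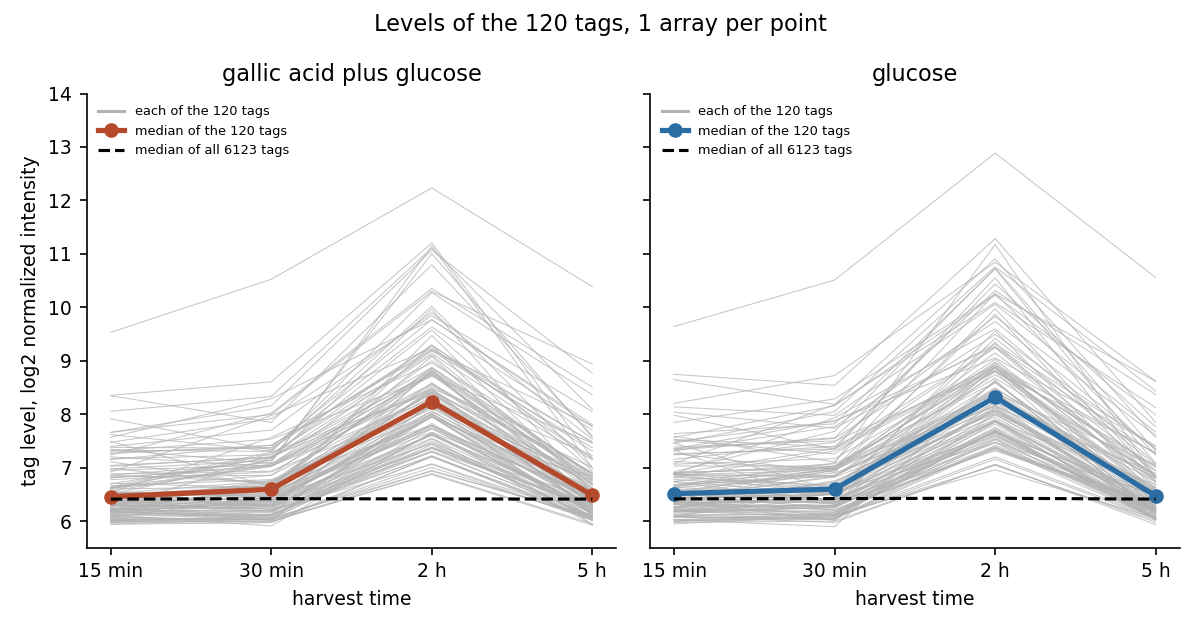
Level of each of the 120 tags (grey), their median (coloured) and the median of all 6123 tags (dashed) at the 4 harvest times, with gallic acid plus glucose on the left and glucose on the right, in log2 normalized intensity with 1 array per point. The median of the 120 tags was 8.24 at 2 h with gallic acid and 8.32 at 2 h in glucose, and below 6.7 on the other arrays.

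The size of the step was taken as the level at 2 h minus the mean of the other 3 harvest times of the same arm, called the rise. With gallic acid the rise had a median of 1.68 on the log2 scale, a 3.21-fold difference, and lay between 0.87 and 4.16. In glucose it had a median of 1.73, a 3.32-fold difference, and lay between 0.90 and 4.32. Over all tags the median rise was -0.06 with gallic acid and -0.05 in glucose. A rise of at least 1 was found for 114 of the 120 tags with gallic acid (3.95% of all tags) and for 117 in glucose (3.98%). A rise of at least 2 was found for 33 tags with gallic acid (0.588% of all tags) and for 40 in glucose (0.702%). One of at least 3 was found for 4 (0.0817%) and 6 tags (0.098%).

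Across the 120 tags the rise with gallic acid and the rise in glucose had a Pearson r of 0.87 and a Spearman rho of 0.84 (n = 120 tags), and the rule fixed that both were high. Tags are not independent replicates, and both rises rest on the same probes and on arrays normalized together. A tag's mean rise was also larger where its level outside 2 h was higher (r = 0.52, rho = 0.60, n = 120 tags). The offset used in the background correction shrinks the ratios of dim tags, and its part in this relation was not tested.

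**Figure D2:**
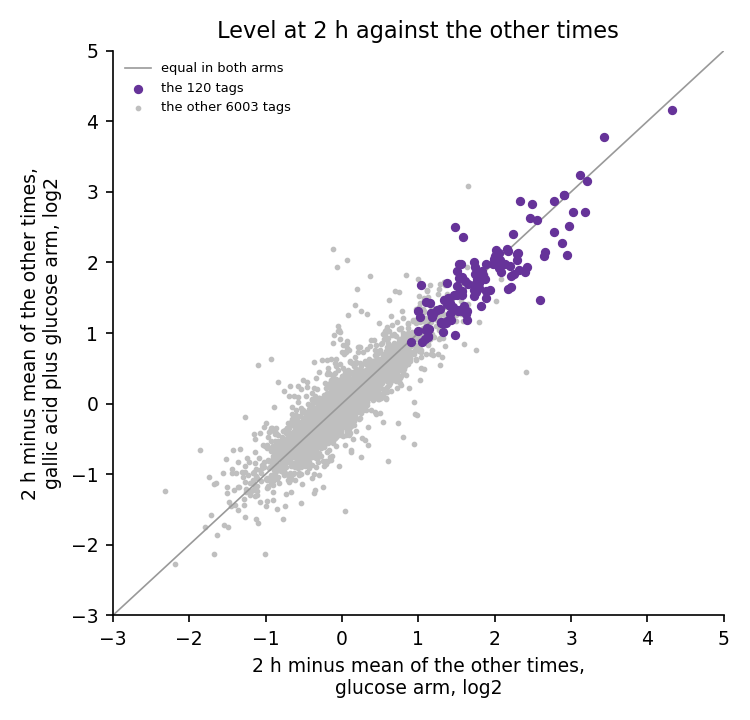
Rise of each tag in the gallic acid plus glucose arm (vertical axis) and in the glucose arm (horizontal axis), both as the log2 level at 2 h minus the mean of the other 3 harvest times. The 120 tags (purple) lie at 0.87 or more with gallic acid and 0.90 or more in glucose, near the line of equal rise, and the other 6003 tags (grey) spread around 0, some with rises above 1 in 1 or both arms.

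Outside 2 h the 120 tags were near all tags in median level, but less often among the brightest or the dimmest. Their median level there was 6.50, against 6.44 over all tags, and their median percentile was 54.1. At 2 h the median percentile was 91.5 and the lowest 72.4. Only 4 of the 120 tags (3.33%) were among the highest 10% of levels outside 2 h, against 8.93% of all tags by their mean percentile. At 2 h 71 were (59.2%), against 9.68% of all tags. Outside 2 h, 56 of the 120 (46.7%) lay in the lower 50% of levels, against 50.3% of all tags, and at 2 h none did. On average under 50% of the probes were well above background outside 2 h in 16.7% of the 120 tags, against 31.0% of all tags.

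The brightest of the 120 outside 2 h was ARAD1C35398g. With gallic acid its level was 9.53, 10.52, 12.23 and 10.39 at the 4 harvest times, against 9.64, 10.51, 12.88 and 10.56 in glucose. The next, ARAD1A17270g, had 7.66, 8.16, 11.07 and 8.77 with gallic acid, against 8.20, 8.72, 10.84 and 8.62 in glucose. Both stood well above the array median at every harvest and rose further at 2 h.

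The dimmest outside 2 h was ARAD1D02750g, with levels of 5.99, 5.99, 6.89 and 5.95 with gallic acid at the 4 harvest times, against 5.98, 6.0, 7.06 and 5.94 in glucose. ARAD1A16698g, the next dimmest, had 5.94, 5.97, 7.20 and 6.01 with gallic acid, against 5.95, 6.10, 7.04 and 6.01 in glucose. On average 15.0% of the probes of ARAD1D02750g and 13.3% of those of ARAD1A16698g were well above background on the 6 arrays outside 2 h, so their levels there are close to the floor of the measurement, which bounds their rises.

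Detection was also highest at 2 h. On average 66.3%, 77.9%, 99.0% and 63.5% of a tag's probes were well above background at the 4 harvest times with gallic acid, against 88.0%, 84.3%, 99.3% and 65.7% in glucose. Over all tags the averages were 61.1%, 69.7%, 75.9% and 59.1% with gallic acid, against 80.1%, 74.3%, 83.1% and 60.6% in glucose, so within each arm the harvests stood in the same order for the 120 tags and for all tags. For 113 of the 120 tags every probe was well above background on both 2 h arrays (47.2% of all tags). In 9 tags no probe was well above background on at least 1 array outside 2 h, and the level there is only an upper bound. All 120 tags passed the filter on dim tags, and all 120 would have passed it without the 2 h arrays, so none entered a test through its peak.

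The highest score belonged to ARAD1D12606g. Its levels were 6.86, 7.10, 11.15 and 7.00 with gallic acid at the 4 harvest times, against 6.67, 7.09, 11.17 and 6.81 in glucose. The rise was 4.16 with gallic acid, which is 17.9-fold, and 4.32 in glucose, which is 19.9-fold. No other tag of the 6123 had so large a rise in either arm. The arms stayed within 0.19 of each other at every harvest.

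ARAD1D20922g had 6.98, 7.14, 11.00 and 7.57 with gallic acid, against 6.92, 7.68, 10.74 and 7.31 in glucose. ARAD1B07238g followed with 6.50, 7.14, 9.97 and 6.53 with gallic acid, against 6.52, 7.00, 9.87 and 6.74 in glucose. ARAD1C42790g had 6.55, 6.46, 9.47 and 6.53 with gallic acid, against 6.88, 6.48, 9.56 and 6.59 in glucose. In these 3 tags the rises lay between 2.91 and 3.78, and all 10 probes of each peaked at 2 h in both arms.

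The comparison of gallic acid plus glucose with glucose asks whether the acid changed the level of these tags. The rule took the lower of both 2 h values and so disfavoured tags whose arms differed strongly at 2 h, and it used the other 6 arrays only by their highest value. In the fit over all 8 arrays with harvest time as a block (limma, Benjamini-Hochberg adjusted over 6111 tags), 0 of the 120 tags passed an adjusted p of 0.05. Of all tags tested 5 were called (0.0818%), all 5 of them higher with gallic acid. At an unadjusted p below 0.05 there were 18 of the 120 tags, against 530 of 6111 tags (8.67%). The median difference, gallic acid minus glucose, was -0.06 over the 120 tags and -0.01 over all tags tested.

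The lowest p among the 120 tags belonged to a tag with a small but steady gap. ARAD1D42152g had 6.78, 6.92, 8.55 and 6.84 with gallic acid at the 4 harvest times, against 7.07, 7.17, 8.88 and 7.03 in glucose. It was lower with gallic acid at all 4 harvests, by 0.26 on average (SE 0.04, limma adjusted p = 0.286). ARAD1B17248g had 8.35, 8.60, 11.20 and 7.18 with gallic acid, against 7.64, 7.82, 10.72 and 7.08 in glucose. It was higher with gallic acid at all 4 harvests, by 0.52 on average (SE 0.12, limma adjusted p = 0.423). Its gap was 0.72 at 15 min and 0.79 at 30 min, the highest of the 120 tags at both harvests, and 0.11 at 5 h.

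Within a harvest time the arms can be set side by side with no test. At 2 h the level was lower with gallic acid for 83 of the 120 tags, against 55.3% of all tags. The same held for 85 tags at 15 min (50.1% of all tags), 78 at 30 min (52.8%) and 51 at 5 h (49.7%). The median difference, gallic acid minus glucose, was -0.08 and -0.05 at the early harvests, -0.11 at 2 h and 0.02 at 5 h. The median over the 120 tags at 2 h was below 0 under each of the 5 ways of scaling, between -0.07 and -0.21, but when arrays were scaled to the 75th percentile of the processed signal it was -0.07 over the 120 tags and -0.13 over all tags.

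Most of these differences were small. At 2 h, 13 of the 120 tags were lower with gallic acid by at least 0.5 (1.32% of all tags were) and 3 were higher by at least 0.5 (1.89% of all tags). At 5 h no tag of the 120 differed by 0.5 in either direction. A given ratio is shrunk less in bright tags, and at 2 h the 120 tags were brighter than the average tag. The part of this in the count was not tested.

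**Figure D3:**
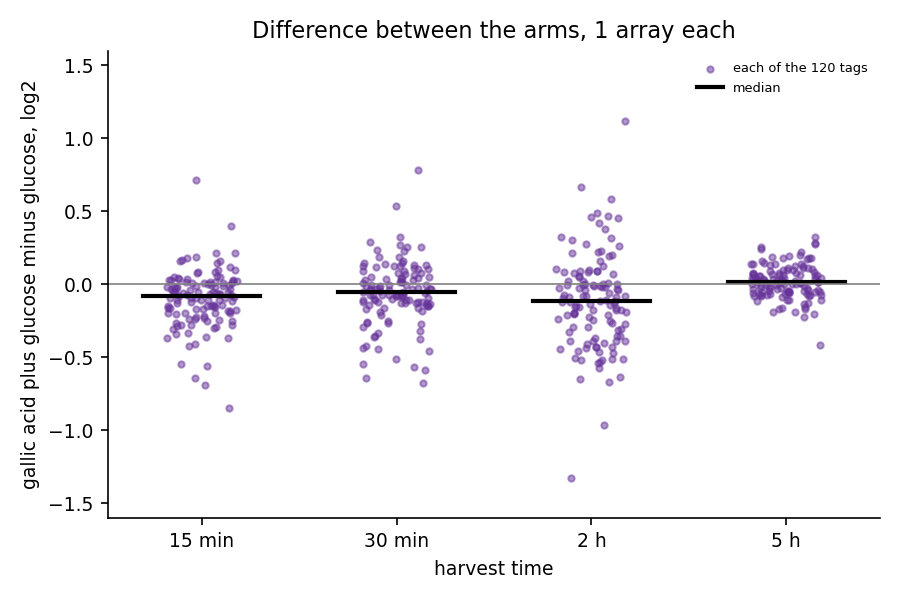
Difference between the arms, gallic acid plus glucose minus glucose, for each of the 120 tags at the 4 harvest times, in log2 with 1 array per arm and time; black bars are medians. The medians are -0.08, -0.05, -0.11 and 0.02, the spread is widest at 2 h, where single tags reach -1.33 and 1.12, and at 5 h all tags lie between -0.42 and 0.32.

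The tags with the largest gaps at 2 h differed less at the other harvests. ARAD1C10252g had 6.17, 6.07, 7.63 and 6.24 with gallic acid, against 6.27, 6.51, 8.95 and 6.32 in glucose, a gap of -1.33 at 2 h. ARAD1B08932g had 7.17, 7.24, 9.30 and 7.17 with gallic acid, against 7.59, 7.10, 10.26 and 7.25 in glucose, a gap of -0.96 at 2 h. The opposite gap was found for ARAD1D08734g, with 6.30, 6.30, 8.80 and 6.30 with gallic acid, against 6.32, 6.11, 7.68 and 6.20 in glucose, a gap of 1.12. ARAD1C09174g had 6.41, 6.15, 8.00 and 6.40 with gallic acid, against 6.36, 6.21, 7.33 and 6.32 in glucose, a gap of 0.67 at 2 h. The rule had placed all 4 highest at 2 h in both arms.

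The difference of the rise between the arms was fitted as an interaction of arm with 2 h in the same 8 arrays. The rule used these 2 h values and limited how far the arms of a chosen tag could differ. Nothing is therefore read from the counts, and single tags are given only as a description. No tag of the 120 passed (0 of 6111 tags did, 0.0%), while 19 of the 120 and 190 of 6111 tags (3.11%) had an unadjusted p below 0.05 in limma. The rise of ARAD1D08734g was larger by 1.03 with gallic acid. The rise of ARAD1C10252g was smaller by 1.12 with gallic acid, as a difference of -1.12. With its brightest probe alone, which did not peak, that difference was -0.10, and with the 75th percentile scaling it was -0.49.

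Over the 120 tags the rise was smaller with gallic acid for 71 (54.3% of all tags). The median difference of the rise, gallic acid minus glucose, was -0.05 over the 120 tags and -0.01 over all tags. When arrays were scaled to the 75th percentile of the processed signal it was 0.14 over the 120 tags, so no direction is given for it.

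The 6 arrays outside 2 h show what these tags did before and after the peak. The highest level outside 2 h was at 30 min for 66 tags (24 with gallic acid, 42 in glucose), at 15 min for 36 (6 with gallic acid, 30 in glucose) and at 5 h for 18 (10 with gallic acid, 8 in glucose). The rule subtracted this highest level, and its place was not counted over all tags. Within the gallic acid arm, the highest of the other 3 harvests was at 30 min for 61 tags (30.1% of all tags). It was at 15 min for 30 (34.3%) and at 5 h for 29 (35.6%). In glucose the same counts were 65 (31.1%), 40 (32.7%) and 15 (36.2%). The level at 30 min was above that at 15 min for 80 of the 120 tags with gallic acid (48.2% of all tags) and for 75 in glucose (51.2%). Both arms agreed in an upward step for 62 tags (33.9% of all tags) and in a downward step for 27 (34.4%).

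The rule used the highest value of the 6 arrays outside 2 h, so comparisons among them are not wholly free of it. In the fit of the 6 arrays (limma, Benjamini-Hochberg), 10 of the 120 tags differed between 30 min and 15 min, 9 higher and 1 lower at 30 min. Of the 6111 tags tested 7.49% were called, 253 higher (4.14%) and 205 lower (3.35%). Without regard to direction, the share of the 120 tags was thus close to that of all tags. By direction, the calls among the 120 tags were mostly upward, while those over all tags were more even. At an unadjusted p below 0.05 there were 30 of the 120 tags, against 27.3% of all tags. The count over the 120 tags was between 9 and 21 under the other ways of scaling, summarizing, filtering and fitting, and 0 with Bonferroni adjustment.

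ARAD1C35398g, whose levels are given above as the brightest of the list, had the largest step up, by 0.93 at 30 min relative to 15 min (SE 0.07, limma adjusted p = 0.0177, higher in both arms). ARAD1D22088g had 7.24, 8.02, 10.35 and 8.51 with gallic acid, against 7.46, 8.05, 10.76 and 8.44 in glucose. It rose by 0.69 at 30 min relative to 15 min (SE 0.09, limma adjusted p = 0.0333), a call that was lost with the 75th percentile scaling (limma adjusted p = 0.0502) and with the brightest probe (limma adjusted p = 0.0916). The 1 tag with a called step down was ARAD1C11462g, with 7.49, 6.65, 8.88 and 6.88 with gallic acid, against 7.46, 6.57, 9.42 and 7.05 in glucose. It fell by 0.86 at 30 min relative to 15 min (SE 0.08, limma adjusted p = 0.0215) before its peak, and the difference reached -1.84 with the 75th percentile scaling.

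By 5 h most of the 120 tags lay near their early level, as did most tags in general. The level at 5 h was within 0.5 of the mean of 15 and 30 min for 112 tags with gallic acid (93.3%, against 90.6% of all tags) and for 110 in glucose (91.7%, against 91.8% of all tags). Of the step from the early mean to 2 h, a median of -1.52% was left at 5 h with gallic acid and -5.16% in glucose, so the median tag ended slightly below its start. The level at 5 h was below the early mean for 67 tags with gallic acid (48.4% of all tags) and for 91 in glucose (48.0%). The median change from 2 h to 5 h was -1.70 with gallic acid and -1.79 in glucose, and that from 30 min to 2 h was 1.62 with gallic acid and 1.59 in glucose.

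In the same fit of 6 arrays, 5 of the 120 tags differed between 5 h and the early harvests (5.11% of 6111 tags did), 3 of them higher (3.06% of all tags) and 2 lower at 5 h (2.05%). At an unadjusted p below 0.05 there were 32 of the 120 tags, against 25.8% of all tags. ARAD1B00924g had 7.33, 7.30, 10.27 and 8.36 with gallic acid, against 7.35, 7.56, 10.31 and 8.37 in glucose, and stood 0.98 higher at 5 h than early (SE 0.08, limma adjusted p = 0.0213), a difference that reached 1.99 with the brightest probe. ARAD1D22088g stood 0.78 higher (SE 0.08, limma adjusted p = 0.0311), but 0.37 higher and not called with its brightest probe (limma adjusted p = 0.366). In both tags the arms were close at 5 h, where no tag of the 120 differed by 0.5.

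Other tags ended lower than they began. ARAD1B02068g had 8.35, 7.85, 10.79 and 7.60 with gallic acid, against 8.65, 8.18, 10.91 and 7.56 in glucose, and fell by 0.68 at 5 h relative to the early harvests (SE 0.10, limma adjusted p = 0.0480), a call that was lost with the 75th percentile scaling (limma adjusted p = 0.0743). ARAD1B18832g had 6.36, 6.43, 7.45 and 6.08 with gallic acid, against 6.42, 6.50, 7.64 and 6.12 in glucose. It fell by 0.33 (SE 0.05, limma adjusted p = 0.0449), but was not called with median scaling (-0.27) or the mean of the probes (-0.19), and its brightest probe alone gave the opposite sign, 0.13. With the 75th percentile scaling the difference was -1.31. The count of called tags was 3 with median scaling, 0 with Bonferroni adjustment and up to 12 under the other settings. Under those that called 8 to 12 tags, lower calls were the more frequent.

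**Figure D4:**
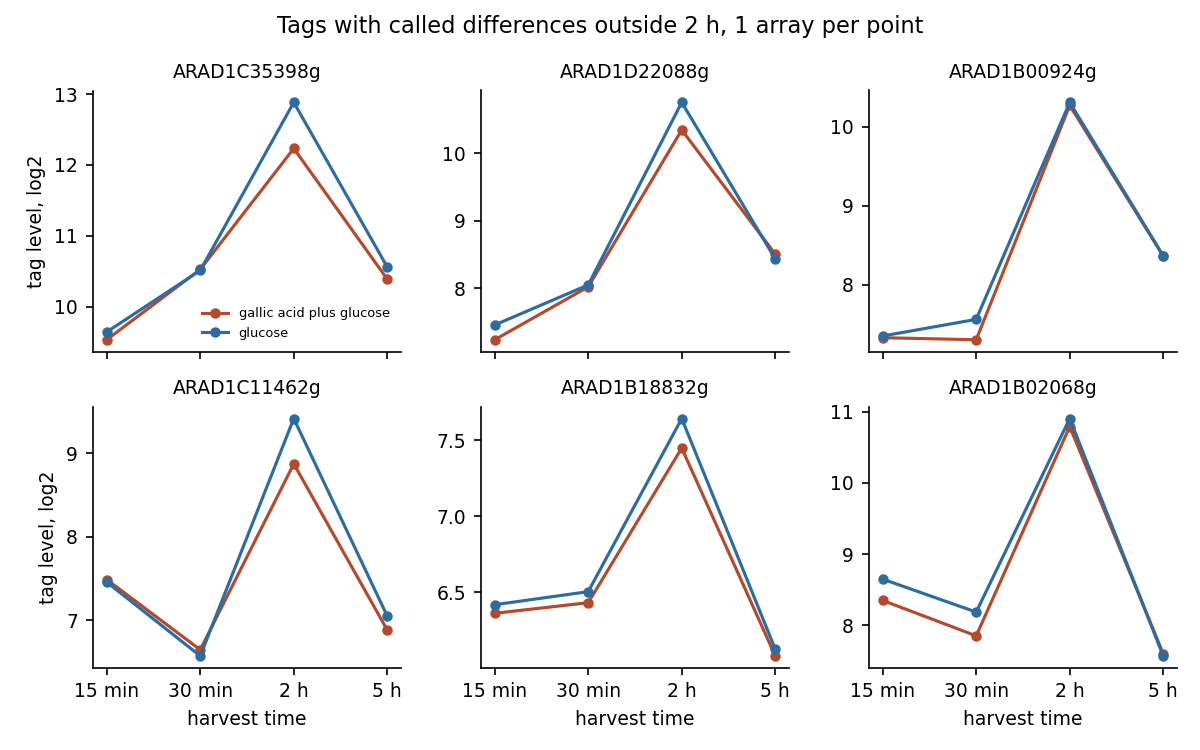
Levels of 6 of the 120 tags at the 4 harvest times with gallic acid plus glucose (red) and glucose (blue), in log2 normalized intensity with 1 array per point and a separate vertical axis for each tag. ARAD1C35398g and ARAD1D22088g step up by 30 min, ARAD1C11462g steps down by 30 min, ARAD1B00924g and ARAD1D22088g remain above their early level at 5 h, and ARAD1B18832g and ARAD1B02068g end below it.

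Single probes showed how widely the pattern ran along each tag. Most tags were covered by 10 probes, and a probe was said to peak when both of its 2 h values were above its values on the other 6 arrays. Of the 1115 probes of the 120 tags 1063 peaked (95.3%), against 9710 of 56164 probes of all tags (17.3%). Every probe peaked in 92 of the 120 tags, against 4.65% of all tags. The rule used the median over a tag's probes, so these counts are a description of how many of its probes followed.

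In 28 tags at least 1 probe did not peak. A single probe failed in 17 of them, a block of at least 2 probes at the downstream end in 6, and scattered probes in 5. Place along a tag was read from the number in the probe's name, taken as the distance from the tag's start, which the files do not state. In 8 tags a probe that did not peak was brighter outside 2 h, by at least 2 on the log2 scale, than the median of the tag's peaking probes. One of these was in ARAD1D12606g, where the probe at 121 had a level of 12.71 outside 2 h and 12.99 at 2 h, a rise of 0.29, while the other 8 probes rose by 2.05 to 4.58.

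In all 6 tags with a downstream block the median rise of the block was near 0, between -0.16 and 0.10. The peaking probes of these tags had median rises of 1.03 to 2.41. Single probes are given here for 2 of them. ARAD1A15840g had 6 probes between 46 and 648 that rose by 2.01 to 2.97 on average over both arms, and 4 probes from 708 on whose rises lay between -0.25 and 0.11. ARAD1C15862g had 5 probes between 102 and 565 that rose by 1.89 to 3.36, and 5 probes from 625 to 926 whose rises lay between -0.30 and -0.02. Levels outside 2 h in ARAD1A15840g were 6.87 to 7.29 before the break and 6.21 to 6.75 after it, so the sides differed far more at 2 h than at the other harvests. The level of these tags at 2 h thus stands for their upstream probes.

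The lowest share of peaking probes was found in ARAD1A05698g, where 4 of 10 peaked. Those 4 rose by 1.40 to 1.68, while the probe at 223 had a level of 12.04 outside 2 h and rose by 0.26, and the probe at 561 fell by 0.69. A tag median over such probes depends on which of them lies in the middle. At the other end, all 10 probes of ARAD1D20922g rose by 1.78 to 4.14.

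Within most tags the rise grew towards the downstream end. The downstream probes rose more than the upstream probes in 96 of the 119 tags with at least 4 probes (59.2% of all such tags), and the median difference, upstream minus downstream, was -0.51. Over all tags, whose rises lie near 0, it was -0.03. Outside 2 h the downstream probes were brighter by a median of only 0.03 in the 120 tags, and at 2 h by 0.49. ARAD1D12584g shows the gradient, with rises of 1.51, 1.35 and 1.39 in its first 3 probes, at 950 to 1139, and of 4.21 in its last, at 1797.

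**Figure D5:**
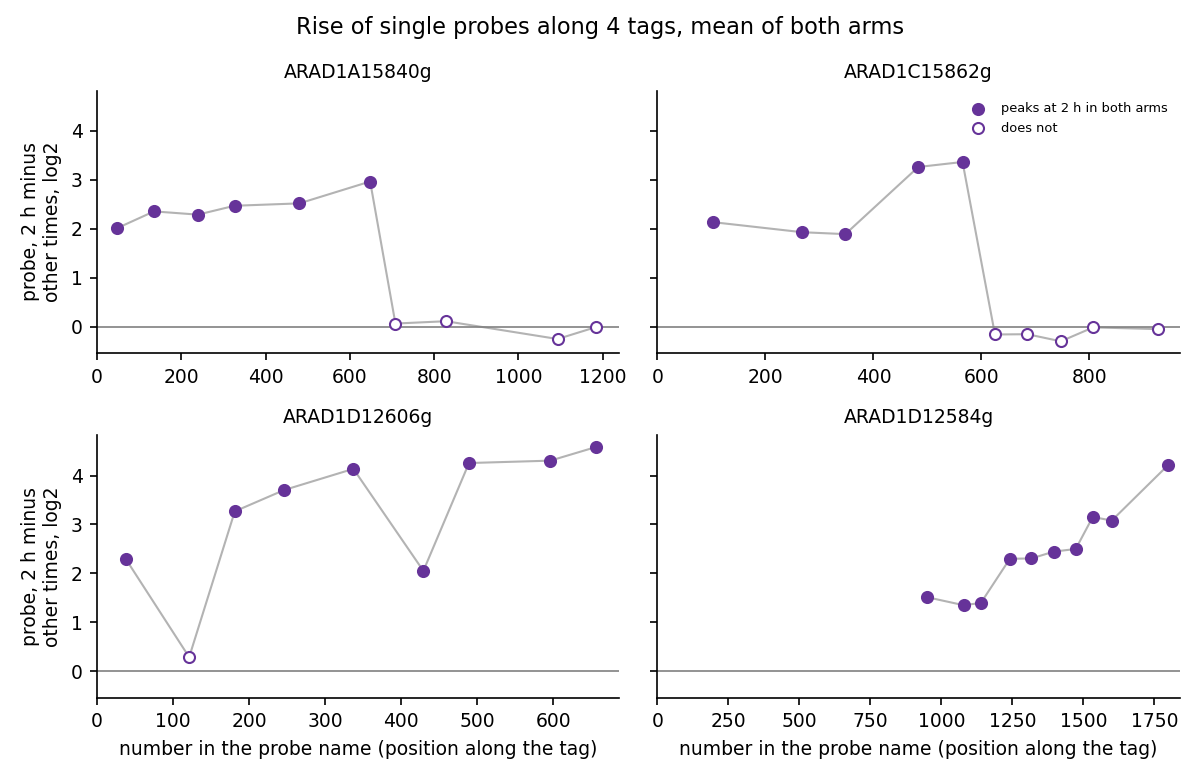
Rise of single probes, the log2 level at 2 h minus that of the other 6 arrays as a mean of both arms, against the number in the probe's name for 4 of the 120 tags; filled points peak at 2 h in both arms and open points do not. The rise ends after 648 in ARAD1A15840g and after 565 in ARAD1C15862g, 1 bright probe of ARAD1D12606g rises by only 0.29, and ARAD1D12584g reaches 4.21 at its last probe.

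The 120 tags were spread over the genome. By the letter in the tag, 15 were on chromosome A, 16 on B, 36 on C and 53 on D, or 12.5%, 13.3%, 30.0% and 44.2%. Of all tags 14.2%, 17.1%, 32.5% and 35.6% were on these chromosomes. A further 31 of all tags (0.506%) carried the letter X, and no member did. No tag of the 120 was among the outermost 10 tags at an end of a letter's tag order, X included, where 100 of the 6123 lie. Of the 236 tags next to a member that were not members themselves, 18.2% had a score above 0, as had 18.2% of all tags outside the list.

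There were 2 pairs of neighbours in the order of the tags. ARAD1D12606g lay next to ARAD1D12584g, which had 6.19, 6.02, 8.20 and 5.92 with gallic acid, against 6.03, 5.90, 8.64 and 6.03 in glucose. On 3 of the 6 arrays outside 2 h no probe of ARAD1D12584g was well above background, so its rises of 2.15 with gallic acid and 2.66 in glucose are set against a floor. The tag on the other side of ARAD1D12606g, ARAD1D12628g, ranked 128 and was just outside the list. It had 6.97, 6.77, 7.95 and 6.58 with gallic acid, against 6.82, 6.54, 8.22 and 6.55 in glucose, and all 10 of its probes peaked at 2 h. The next tags on either side, ARAD1D12562g and ARAD1D12650g, had rises between -0.30 and -0.08, so the stretch of high rises held 3 adjacent tags.

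The other pair was ARAD1A05786g and ARAD1A05808g. ARAD1A05786g had 8.05, 8.33, 11.11 and 8.09 with gallic acid, against 8.75, 8.54, 11.29 and 7.85 in glucose. ARAD1A05808g had 6.20, 6.63, 8.39 and 6.19 with gallic acid, against 6.39, 6.70, 8.41 and 6.17 in glucose. Rises were 2.95 and 2.05 with gallic acid, against 2.91 and 1.99 in glucose, and those of the tag on each side were between 0.20 and 0.51.

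None of the 9 tags that the study's text connects with the breakdown of aromatic acids and that were looked up here was in the list of 120. With 9 of 6123 tags (0.147%) looked up, nothing is read from that count. The study picked the candidate hydroxylases among them from arrays with protocatechuic acid, not from these arrays. The gene of gallic acid decarboxylase, which the study also names, was not looked up. The closest of the 9 was ARAD1C03498g, at rank 407, with a rise of 0.77 with gallic acid, against 1.76 in glucose. ARAD1D18458g, the gene of catechol-1,2-dioxygenase, which opens the ring of catechol, was at rank 533 with a rise of 0.74 with gallic acid, against 0.81 in glucose.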

How the data were processed

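The authors extracted the deposited scanner files with Agilent Feature Extraction 11.5.1.1. Each of these gives a median intensity per spot and for the background around it, a processed intensity, and other values that are flags of 0 or 1. Per the labels, the deposited table of log2 values was background-corrected with normexp and quantile-normalized in limma. Which offset and which signal went into it is not given in the sources used here. Spots were renormalized in R 4.3.3 with limma 3.58.1, using normexp (offset 50) on the median spot and background signals, removal of 1439 control features, quantile normalization and log2. Spots of a probe were averaged, and a tag's level was the median over its probes. Of the 6159 tags with the prefix ARAD1, the ARAD1M tags included, 6111 had a probe well above background on at least 2 arrays and were tested. Harvest time was the block in the fit of gallic acid against glucose, which left 3 residual degrees of freedom, against 2 in the other fits. Benjamini-Hochberg adjusted p below 0.05 counted as called. With 1 array per arm and harvest time, the residual of that fit is how much the arms' ratio varied from harvest to harvest, and the number of arrays limits the precision.

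The fits were also run on simulated data, with flat tag means apart from the change put in, independent noise and no choice of tags by the rule. That run differs from these data and is not used as support for the results. The 120 tags, the tests and the rule for named tags were chosen with earlier results of these data known. Tags named are those at both ends of the score, of each test and of the level outside 2 h. Those at both ends of the gap between arms at 2 h and of the share of peaking probes are named too. Neighbouring members and tags of the study that were looked up were added. At most 2 per direction of a test are printed. ARAD1A15840g and the tags beside the neighbouring pairs were picked after their values were seen.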

Additional observations from a re-analysis of the deposited data

How the results depend on the processing

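All 120 tags were higher at 2 h in both arms than on the other arrays with the scanner values, the 75th percentile scaling, offset 0, median scaling, the mean of the probes and, added after the data were seen, the median over spots. With the brightest probe 109 were. Of the 120 highest scores, 75 were shared with the 75th percentile scaling and 68 with the brightest probe, and 99 with either arm alone, also added later. Scaling to the 75th percentile gave a median rise of 2.87 with gallic acid and 2.80 in glucose, and offset 0 gave 2.58 and 2.65. The median difference of the arms at 2 h was -0.0743 under the 75th percentile scaling and -0.21 with median scaling. The median difference of the rise between arms turned to 0.14 under the same scaling, and was -0.0236 at offset 0 and -0.15 with median scaling. The causes were not tested.

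Called tags between 30 and 15 min numbered 10, against 20 at offset 0, 18 with the deposited table, 21 with a trended and robust prior and 0 with Bonferroni adjustment. Between 5 h and the early harvests 5 were called, against 10 with the 75th percentile, 12 at offset 0, 3 with median scaling, 8 with the deposited table, 8 with the brightest probe, 11 with the trended and robust prior, 11 with all 8 arrays and 0 with Bonferroni adjustment. ARAD1B18832g turned to 0.13 with the brightest probe. For gallic acid over all harvests the count was 0 under every alternative run, also on leaving out each harvest time in turn. Harvest time pairs the arms and is the block of that fit; the fit without the block also called 0 of the 120 tags. The labels give no replicate numbers.

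Each value at 2 h rests on 1 array per arm, and tags near background outside 2 h have rises that are too small. Levels are relative to the other tags of the array, and no independent measurement of total RNA was used.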
